A study of Neurospora crassa with 12 samples.

Results

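The genes described here are 10 genes of hyphal fusion and of the MAK-2 signalling pathway in the filamentous fungus Neurospora crassa, followed through the polyadenylated RNA of 3 strains. They were taken by name and gene identifier, with no measured value in the rule, although earlier results of these data were known when the set was proposed: so (NCU02794), mak-2 (NCU02393), mek-2 (NCU04612), nrc-1 (NCU06182), pp-1 (NCU00340), ham-2 (NCU03727), ham-5 (NCU01789), prm-1 (NCU09337), adv-1 (NCU07392) and hex-1 (NCU08332). All 10 were present among the 9730 genes counted in each library, and all 10 were among the 8496 genes that passed the filter on low counts. The strains were the wild type N150 (mat A), the strain NKL2 (mat A), in which the heterochromatic region LGIIK9het25 was replaced by the hph marker, and the strain N3944, in which dim-5 was replaced by bar+ and whose mating type the labels give as mat x. They are called WT, ΔLGIIK9het25 and Δdim-5 below. Each genotype was represented by a single strain with 4 libraries, all from mycelium of shaken liquid cultures (Vogel's medium, 1.5% sucrose, 32 °C, 16 h). The labels do not say that the 4 libraries of a strain came from separate cultures, so a p-value measures the spread between these libraries only.

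Cells of Neurospora crassa that meet as germlings or hyphae can fuse into a network. In this process the protein SO and the mitogen-activated protein kinase MAK-2 appear in turn at the tips of a pair of approaching cells. MAK-2 is the last kinase of a cascade in which NRC-1 acts on MEK-2 and MEK-2 acts on MAK-2, with HAM-5 as the scaffold. PP-1 and ADV-1 are transcription factors needed for fusion, HAM-2 belongs to the STRIPAK complex, and PRM-1 acts when the plasma membranes merge. HEX-1 forms the core of the Woronin body, the organelle that plugs septal pores after injury. DIM-5 is the histone methyltransferase that marks heterochromatin by methylating histone H3 at lysine 9.

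Library totals in genes ran from 7164944 to 23925695 reads. The deleted gene, dim-5, had 3 reads in all over the 4 Δdim-5 libraries against 297 over the 4 WT libraries. Reads that fell outside counted genes took 8.85% to 36.8% of a WT library, 5.17% to 31.8% of a ΔLGIIK9het25 library and 3.62% to 7.29% of a Δdim-5 library. Replicate 2 of WT and replicate 2 of ΔLGIIK9het25 held the largest shares in their strains, and all Δdim-5 libraries lay below every WT library in this share. Levels are in CPM, edgeR's standard unit for a gene's count relative to its scaled library total. Among 6 markers of conidia, the asexual spores, the summed level ran from 356 to 2454 CPM in WT, from 166 to 1541 CPM in ΔLGIIK9het25 and from 493 to 15510 CPM in Δdim-5. Replicate 2 of Δdim-5 held the highest sum and also the largest share of unaligned reads of the 12 libraries (19.6%, against 6.25% to 14.5% in the other Δdim-5 libraries). Of its sum the hydrophobin gene eas made up 14365 CPM. None of the 6 markers was called in any comparison or was at 0 in any library. Among 7 genes of mating and sexual development, the sum lay between 95.5 and 138 CPM in WT. It lay between 136 and 182 CPM in ΔLGIIK9het25 and between 78.6 and 171 CPM in Δdim-5, and only ccg-4 was at 0 in a library. The largest mean of the 7 was that of sub-1 in every strain, at 78.9 (WT), 70.4 (ΔLGIIK9het25) and 70.9 CPM (Δdim-5). The sums therefore say little of the genes at lower levels. In bulk RNA, fewer cells of a type and less RNA per cell cannot be told apart.

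Few of the 10 genes differed between strains. Calls were made in edgeR's quasi-likelihood test where the p, adjusted by Benjamini-Hochberg over all 8496 genes, was under 0.05. Between ΔLGIIK9het25 and WT, 0 of the 10 genes were called, against 4.32% of all genes. An unadjusted edgeR p under 0.05 was found for 1 of the 10, beside 1339 of all 8496 genes. DESeq2 and limma-voom also called 0 of the 10 there, against 7.27% and 3.6% of all genes. Between Δdim-5 and WT, nrc-1 alone was called and was lower in Δdim-5, so 1 of 10 stood against 16.5% of all genes. In DESeq2 and with library totals alone mak-2 was called as well, 2 of 10 against 21.5% and 16.6% of all genes, and limma-voom called 1 of 10 against 15.7%. Between Δdim-5 and ΔLGIIK9het25, so alone was called and was lower in Δdim-5, 1 of 10 against 16.7% of all genes. DESeq2 and library totals alone added ham-5 and ham-2, 3 of 10 against 21.6% and 16.2% of all genes, and limma-voom added ham-5, 2 of 10 against 17.4%. With 10 genes a single call moves their share by 10 percentage points. Between ΔLGIIK9het25 and WT their share lay below that of all genes in each of these fits. Between Δdim-5 and WT, among these fits, it lay above only with library totals alone. Between Δdim-5 and ΔLGIIK9het25 it lay below in the edgeR fit reported, and above in DESeq2, in limma-voom and with library totals alone.

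The direction of the differences was nevertheless uneven. In the comparison of Δdim-5 with WT, 9 of the 10 fitted log2 fold changes were negative and their median was -0.25, whereas the median of all genes was 0.01. Between Δdim-5 and ΔLGIIK9het25 the median of the 10 was -0.26, beside 0.02 for all genes, and 3 of the 10 values were positive. With library totals alone, pp-1 and adv-1 turned slightly negative there, while all 10 signs of Δdim-5 over WT were the same under either other scaling. With a library left out, however, mek-2 and adv-1 in Δdim-5 over WT reached positive values of up to 0.077 and 0.071. Between ΔLGIIK9het25 and WT the median of the 10 was -0.01, equal to that of all genes, with 5 positive values. The median size of a log2 fold change, regardless of sign, was 0.18 for the 10 genes and 0.21 for all genes between ΔLGIIK9het25 and WT, 0.30 and 0.32 between Δdim-5 and WT, and 0.27 and 0.32 between Δdim-5 and ΔLGIIK9het25. The 10 other fusion genes described further down had medians of the opposite sign in both comparisons with Δdim-5. Of all 8496 genes, 4090 had positive values in ΔLGIIK9het25 over WT, 4321 in Δdim-5 over WT and 4376 in Δdim-5 over ΔLGIIK9het25. The 3 comparisons share libraries, so their counts are not independent of each other.

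The ranges of the libraries were compared in the same way. All 4 Δdim-5 libraries lay below all 4 WT libraries for nrc-1, mak-2 and hex-1, which is 3 of 10 genes, while 20.3% of all genes had ranges that did not overlap in that comparison. All 4 Δdim-5 libraries lay below all 4 ΔLGIIK9het25 libraries for so, ham-5 and ham-2, again 3 of 10, beside 21.3% of all genes. For 0 of the 10 genes did the ranges of ΔLGIIK9het25 and WT stand apart, beside 11.6% of all genes.

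**Figure D1:**
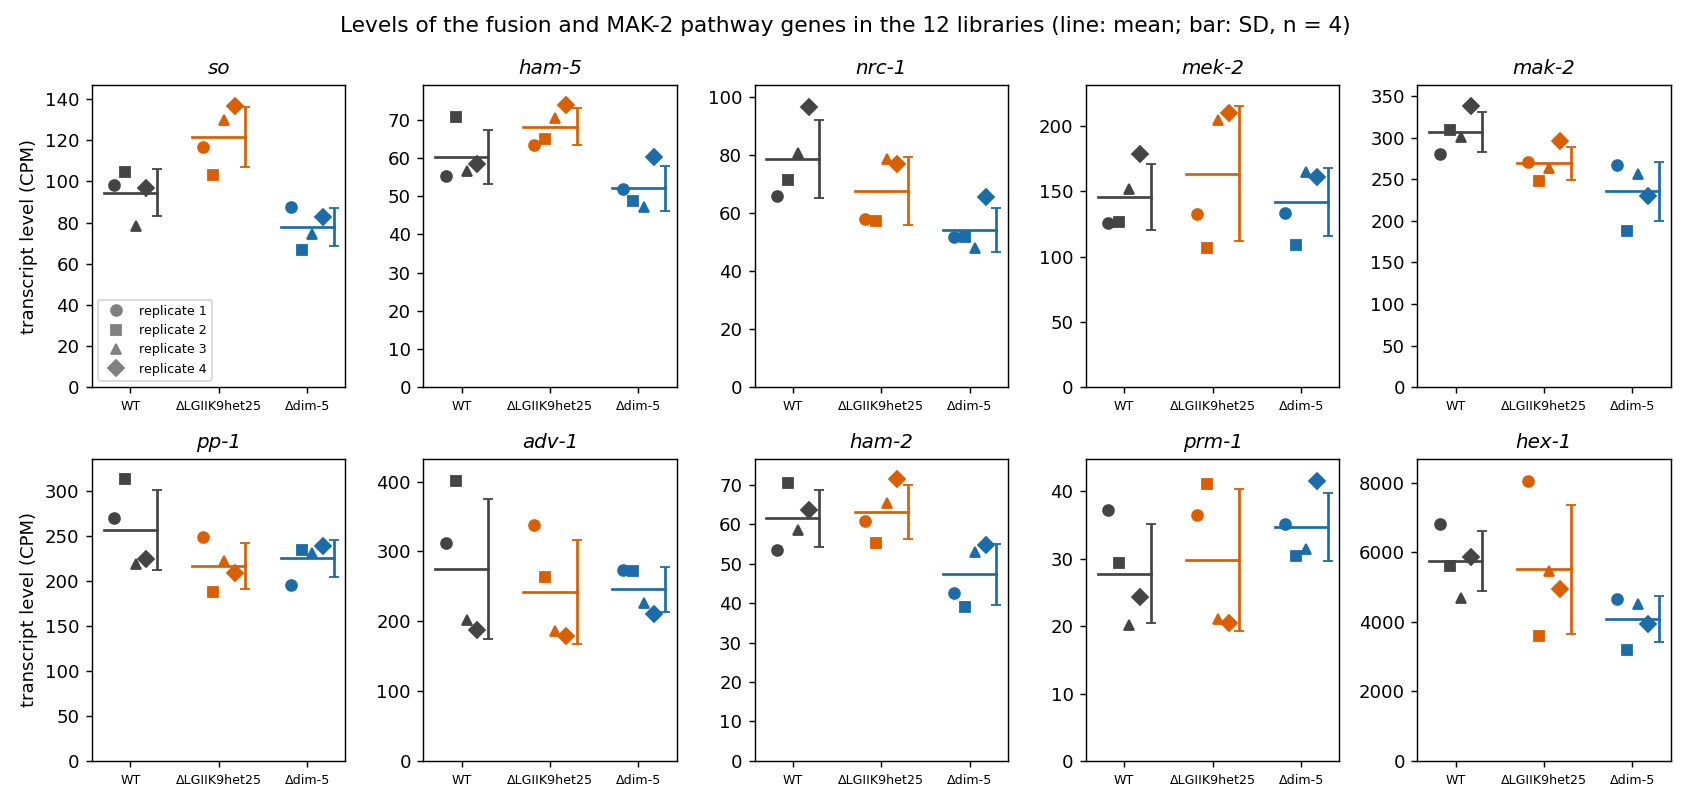
Level of each of the 10 genes in every library, in CPM on a linear axis that starts at 0, with 1 panel per gene and the 3 strains side by side. Points are libraries, horizontal lines are means and vertical bars are the SD of 4 libraries. The Δdim-5 points lie below all WT points for nrc-1, mak-2 and hex-1 and below all ΔLGIIK9het25 points for so, ham-5 and ham-2.

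The gene so encodes a WW-domain protein that is recruited to the tips of fusing cells in alternation with MAK-2. In WT replicates 1 to 4 it stood at 98.0, 105, 78.2 and 97.0 CPM (94.4 ± 11.4, SD, n = 4). In ΔLGIIK9het25 it stood at 117, 103, 129.6 and 136 CPM (121 ± 14.7, SD, n = 4), and in Δdim-5 at 87.5, 66.8, 74.2 and 82.5 CPM (77.8 ± 9.12, SD, n = 4). Thus ΔLGIIK9het25 was highest and Δdim-5 lowest in mean level, with WT between them and overlapping both. Δdim-5 was lower than ΔLGIIK9het25 by a log2 fold change of -0.64 (SE 0.14, 95% interval -0.95 to -0.33), which makes the level in ΔLGIIK9het25 1.56 times that in Δdim-5 (edgeR adjusted p = 0.0085). The call held in all 21 alternative settings and left-out libraries, with adjusted p between 0.000311 and 0.0323. Neither neighbour in the order was separated by the test. The log2 fold change of ΔLGIIK9het25 over WT was 0.36 (95% interval 0.05 to 0.67, edgeR unadjusted p = 0.0245, adjusted p = 0.218), and that of Δdim-5 over WT was -0.28 (95% interval -0.59 to 0.03, edgeR adjusted p = 0.211).

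The scaffold gene ham-5 had the same order of means. Its levels were 55.3, 70.7, 56.6 and 58.5 CPM in the 4 WT libraries (60.3 ± 7.10, SD). In ΔLGIIK9het25 the values were 63.4, 64.9, 70.5 and 74.0 CPM (68.2 ± 4.90, SD, n = 4). In Δdim-5 they were 51.9, 48.8, 47.2 and 60.2 CPM (52.0 ± 5.80, SD, n = 4). The highest Δdim-5 library lay below the lowest ΔLGIIK9het25 library, whereas WT overlapped both. The log2 fold change of Δdim-5 over ΔLGIIK9het25 was -0.39 (SE 0.13, 95% interval -0.67 to -0.11), and it missed the threshold in edgeR (adjusted p = 0.057). It passed with library totals alone (adjusted p = 0.0343), in DESeq2 (adjusted p = 0.023), in limma-voom (adjusted p = 0.0497) and in edgeR without replicate 4 of Δdim-5 (adjusted p = 0.0424). The other comparisons gave log2 fold changes of 0.18 for ΔLGIIK9het25 over WT (95% interval -0.10 to 0.46) and -0.21 for Δdim-5 over WT (95% interval -0.49 to 0.07), with edgeR adjusted p of 0.59 and 0.303.

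Of the kinases of the cascade, nrc-1 changed, and mek-2 and mak-2 were not called. NRC-1 stands at the top of the cascade as the kinase of MEK-2, and it was first known because its mutants make conidia where wild-type mycelium does not. Its gene stood at 65.9, 71.3, 80.8 and 96.8 CPM in WT replicates 1 to 4, a mean of 78.7 ± 13.5 (SD, n = 4). The ΔLGIIK9het25 libraries held 58.0, 57.3, 78.8 and 77.0 CPM (67.8 ± 11.7, SD, n = 4) and the Δdim-5 libraries 51.8, 51.9, 47.9 and 65.5 CPM (54.3 ± 7.69, SD, n = 4). All Δdim-5 libraries lay below all WT libraries, though the highest of them, replicate 4, was within 1 CPM of the lowest WT library. Replicate 2 of Δdim-5, with the highest sum of conidial markers, lay inside the range of the other Δdim-5 libraries for nrc-1. The gene fell in Δdim-5 relative to WT by 0.54 on the log2 scale (SE 0.17, 95% interval -0.90 to -0.17), a level in WT 1.45 times that in Δdim-5 (edgeR adjusted p = 0.0448). This call lies close to the threshold and held in 11 of 21 alternatives, whose adjusted p ran from 0.0147 to 0.137. It was lost with a minimum mean of 5 CPM (adjusted p = 0.0566), in a fit of WT and Δdim-5 alone (adjusted p = 0.0604) and in edgeR without any of 8 single libraries. Without WT replicate 2, 3 or 4 the adjusted p was 0.0565, 0.0905 or 0.137. Without ΔLGIIK9het25 replicate 1 or 4 it was 0.0506 or 0.0542. Without Δdim-5 replicate 1, 2 or 3 it was 0.0982, 0.0986 or 0.103. The direction was the same in every one of the 21, with log2 fold changes from -0.74 to -0.42. ΔLGIIK9het25 lay between the other strains and was called against neither, with log2 fold changes of -0.21 for ΔLGIIK9het25 over WT (95% interval -0.58 to 0.15, edgeR adjusted p = 0.624) and -0.32 for Δdim-5 over ΔLGIIK9het25 (edgeR adjusted p = 0.221).

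The gene of the middle kinase, mek-2, stood at 126, 127, 152 and 179 CPM in the 4 WT libraries (146 ± 25.3, SD). In ΔLGIIK9het25 the values were 132, 107, 205 and 210.0 CPM (163 ± 51.8, SD, n = 4). In Δdim-5 they were 133, 109, 165 and 161 CPM (142 ± 26.1, SD, n = 4). The 3 strains overlapped widely, and in each of them replicates 3 and 4 were above replicates 1 and 2. The edgeR log2 fold changes were 0.16 for ΔLGIIK9het25 over WT (95% interval -0.32 to 0.65, adjusted p = 0.823), -0.04 for Δdim-5 over WT (95% interval -0.52 to 0.45, adjusted p = 0.935) and -0.20 for Δdim-5 over ΔLGIIK9het25 (95% interval -0.69 to 0.29, adjusted p = 0.596).

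The gene of the last kinase, mak-2, stood at 281, 309, 301 and 339 CPM in WT replicates 1 to 4, a mean of 307 ± 23.99 (SD, n = 4). The ΔLGIIK9het25 libraries held 271, 248, 264 and 296 CPM (269 ± 19.9, SD, n = 4) and the Δdim-5 libraries 267, 188, 257 and 229 CPM (235 ± 35.2, SD, n = 4). All Δdim-5 libraries lay below all WT libraries, and ΔLGIIK9het25 overlapped both. The lowest value was that of Δdim-5 replicate 2, the library with the highest sum of conidial markers. The log2 fold change of Δdim-5 over WT was -0.38 (SE 0.14, 95% interval -0.68 to -0.09) and missed the threshold in edgeR (adjusted p = 0.0749), but passed in DESeq2 (adjusted p = 0.0313) and with library totals alone (adjusted p = 0.0311). Without Δdim-5 replicate 2 it was -0.29 (edgeR adjusted p = 0.178). That replicate was the lowest Δdim-5 library for 6 of the 10 genes, so, mek-2, mak-2, ham-2, prm-1 and hex-1. How often it was the lowest among all tested genes was not counted, so the 6 cannot be set against a share of all genes. The part of its conidial markers or unaligned reads in these values was not tested. Without Δdim-5 replicate 2, so was still called between Δdim-5 and ΔLGIIK9het25 (log2 fold change -0.60, edgeR adjusted p = 0.0224). ΔLGIIK9het25 over WT and Δdim-5 over ΔLGIIK9het25 gave log2 fold changes of -0.19 each, with edgeR adjusted p of 0.589 and 0.373.

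**Figure D2:**
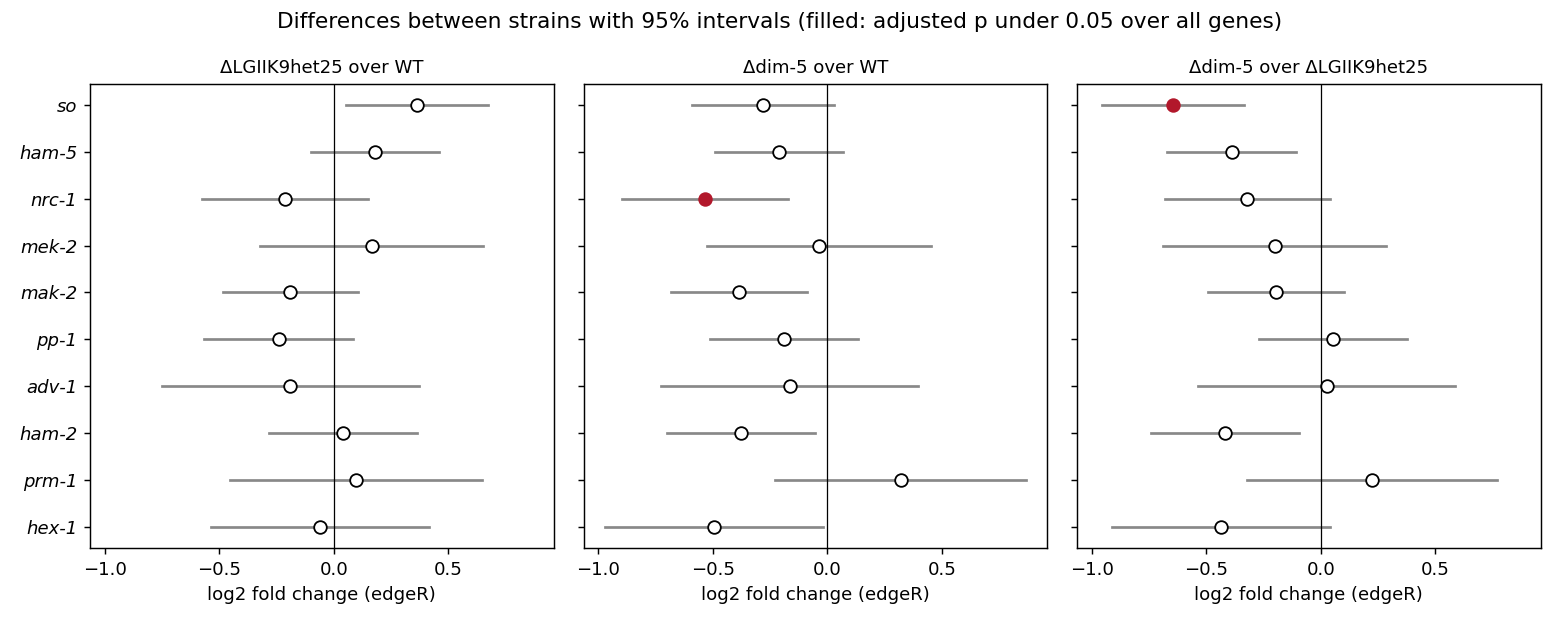
Log2 fold changes of the 10 genes in the 3 comparisons, from the edgeR fit over all 12 libraries. Points are fitted values, bars are 95% intervals, and filled points mark an adjusted p under 0.05. Filled points are nrc-1 in Δdim-5 over WT and so in Δdim-5 over ΔLGIIK9het25.

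Neither transcription factor gene was called in any comparison by edgeR. PP-1, the counterpart of yeast Ste12, acts downstream of MAK-2. Its gene stood at 269.6, 313, 218 and 224 CPM in the 4 WT libraries (256 ± 44.3, SD). In ΔLGIIK9het25 the values were 249, 188, 222 and 209 CPM (217 ± 25.5, SD, n = 4). In Δdim-5 they were 195, 234, 231 and 239 CPM (225 ± 20.2, SD, n = 4). The strains overlapped, and the log2 fold changes were -0.24 for ΔLGIIK9het25 over WT (95% interval -0.57 to 0.08, edgeR adjusted p = 0.505), -0.19 for Δdim-5 over WT (95% interval -0.51 to 0.13, edgeR adjusted p = 0.436) and 0.05 for Δdim-5 over ΔLGIIK9het25 (edgeR adjusted p = 0.854). The zinc-cluster factor ADV-1 is needed for fusion and for sexual development. Its gene stood at 312, 400.4, 201 and 188 CPM in WT replicates 1 to 4, a mean of 275 ± 100.3 (SD, n = 4). The ΔLGIIK9het25 libraries held 337, 263, 185 and 179 CPM (241 ± 74.5, SD, n = 4) and the Δdim-5 libraries 274, 272, 226 and 210.1 CPM (246 ± 32.4, SD, n = 4). Again the strains overlapped, and in each of them replicates 1 and 2 were above replicates 3 and 4. The intervals were wide, -0.75 to 0.37 for ΔLGIIK9het25 over WT, -0.73 to 0.40 for Δdim-5 over WT and -0.54 to 0.59 for Δdim-5 over ΔLGIIK9het25 on the log2 scale, with edgeR adjusted p of 0.823, 0.718 and 0.962.

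HAM-2 is a membrane-bound subunit of STRIPAK, a complex that fusing cells need and that is conserved from fungi to animals. The gene ham-2 stood at 53.4, 70.4, 58.4 and 63.7 CPM in the 4 WT libraries (61.5 ± 7.28, SD). In ΔLGIIK9het25 the values were 60.7, 55.3, 65.4 and 71.3 CPM (63.2 ± 6.82, SD, n = 4). In Δdim-5 they were 42.5, 39.0, 52.9 and 54.7 CPM (47.3 ± 7.70, SD, n = 4). WT and ΔLGIIK9het25 had means close to each other, at a log2 fold change of 0.04 (edgeR adjusted p = 0.943), and Δdim-5 had the lowest mean. Its log2 fold change was -0.38 over WT (SE 0.15, 95% interval -0.70 to -0.05, edgeR adjusted p = 0.107) and -0.42 over ΔLGIIK9het25 (95% interval -0.74 to -0.09, edgeR adjusted p = 0.0758). The latter passed the threshold in DESeq2 (adjusted p = 0.0392) and with library totals alone (adjusted p = 0.0456). Without Δdim-5 replicate 2, the lowest library, the values were -0.29 and -0.36 (edgeR adjusted p = 0.241 and 0.145).

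PRM-1 is a membrane protein that helps the plasma membranes of fusing cells merge. The gene prm-1 stood at 37.3, 29.4, 20.2 and 24.3 CPM in WT replicates 1 to 4, a mean of 27.8 ± 7.37 (SD, n = 4). The ΔLGIIK9het25 libraries held 36.5, 41.1, 21.0 and 20.5 CPM (29.8 ± 10.6, SD, n = 4) and the Δdim-5 libraries 35.2, 30.4, 31.5 and 41.6 CPM (34.7 ± 5.06, SD, n = 4). It was the sole gene of the 10 with a positive fitted value in Δdim-5 over WT, 0.32 (95% interval -0.23 to 0.87, edgeR adjusted p = 0.435), and the strains overlapped. The log2 fold changes in the other comparisons were 0.10 for ΔLGIIK9het25 over WT (95% interval -0.45 to 0.65, edgeR adjusted p = 0.918) and 0.22 for Δdim-5 over ΔLGIIK9het25 (edgeR adjusted p = 0.6).

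The Woronin body gene hex-1 stood at 6797, 5611, 4693 and 5859 CPM in the 4 WT libraries (5740.1 ± 865, SD). In ΔLGIIK9het25 the values were 8033, 3602, 5448 and 4954 CPM (5509 ± 1854, SD, n = 4). In Δdim-5 they were 4649, 3199, 4517 and 3925 CPM (4073 ± 662, SD, n = 4). All Δdim-5 libraries lay below all WT libraries, while ΔLGIIK9het25 held both the highest and nearly the lowest value. The log2 fold change of Δdim-5 over WT was -0.50 (SE 0.22, 95% interval -0.97 to -0.02), which is close in size to that of nrc-1 but with a wider interval, and it was not called (edgeR unadjusted p = 0.043, adjusted p = 0.151). The lowest library was again Δdim-5 replicate 2, and without it the log2 fold change was -0.39 (edgeR adjusted p = 0.32). For ΔLGIIK9het25 over WT and Δdim-5 over ΔLGIIK9het25 the log2 fold changes were -0.06 and -0.44, with edgeR adjusted p of 0.943 and 0.207.

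The spread of the 10 genes between the libraries of a strain had a median below that of all genes. Their median coefficient of variation was 16.1% in WT, beside 20.1% over all tested genes, 14.7% in ΔLGIIK9het25, beside 19.0%, and 14.4% in Δdim-5, beside 22.4%. In WT it was lowest for mak-2 (7.80%) and highest for adv-1 (36.4%). In ΔLGIIK9het25 it was lowest for ham-5 (7.18%) and highest for prm-1 (35.5%), and in Δdim-5 it was lowest for pp-1 (8.99%) and highest for mek-2 (18.4%). Over all 12 libraries the ratio of the highest to the lowest level ran from 1.57 for ham-5 to 2.51 for hex-1. The median of this ratio over the 8203 tested genes with no library at 0 was 2.40. In neither measure were all genes matched to the 10 by level. Of the 8496 tested genes, 7058 had a mean of at least 5 CPM. The lowest strain mean among the 10 was 27.8 CPM, for prm-1 in WT. Whether genes of like level have a like spread was not tested.

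The variation within strains was not the same from gene to gene, and for adv-1 and mek-2 it went with the share of reads outside genes. In every strain, replicates 1 and 2 had the larger shares of such reads. For adv-1 they averaged 356 CPM against 194 CPM for replicates 3 and 4 in WT, 300.2 against 182 CPM in ΔLGIIK9het25 and 273 against 218 CPM in Δdim-5. For mek-2 the order was the opposite, with 126 against 166 CPM in WT, 120 against 207 CPM in ΔLGIIK9het25 and 121 against 163 CPM in Δdim-5. No other gene of the 10 was separated this way in all 3 strains, and this split was looked at after the values had been seen. The split by share is the same as a split by replicate number, so share and number cannot be told apart in it. Among all tested genes, 241 (2.84%) were higher in the libraries with the larger shares in every strain and 213 (2.51%) were lower. The gene prm-1 was separated in WT (33.4 against 22.2 CPM) and in ΔLGIIK9het25 (38.8 against 20.8 CPM), higher in the libraries with the larger shares, but not in Δdim-5. The gene nrc-1 was separated in the same 2 strains, with lower levels in the libraries with the larger shares.

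Across the 12 libraries, the correlation between a gene's deviation from its strain mean and the deviation of this share was 0.74 for adv-1, -0.77 for mek-2, -0.65 for nrc-1 and 0.62 for prm-1. An r of at least that size occurred in 2.26%, 1.45%, 5.76% and 7.74% of all tested genes, whose median size of r was 0.27. The shares differed between strains too, and their part in the differences between strains was not tested beyond a fit that held the share as a term. In that fit nrc-1 was lower in Δdim-5 than in WT (log2 fold change -0.74, edgeR adjusted p = 0.0147), the fold change of adv-1 in the same comparison was positive (log2 0.31, not called), and so was again the gene called between Δdim-5 and ΔLGIIK9het25.

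**Figure D3:**
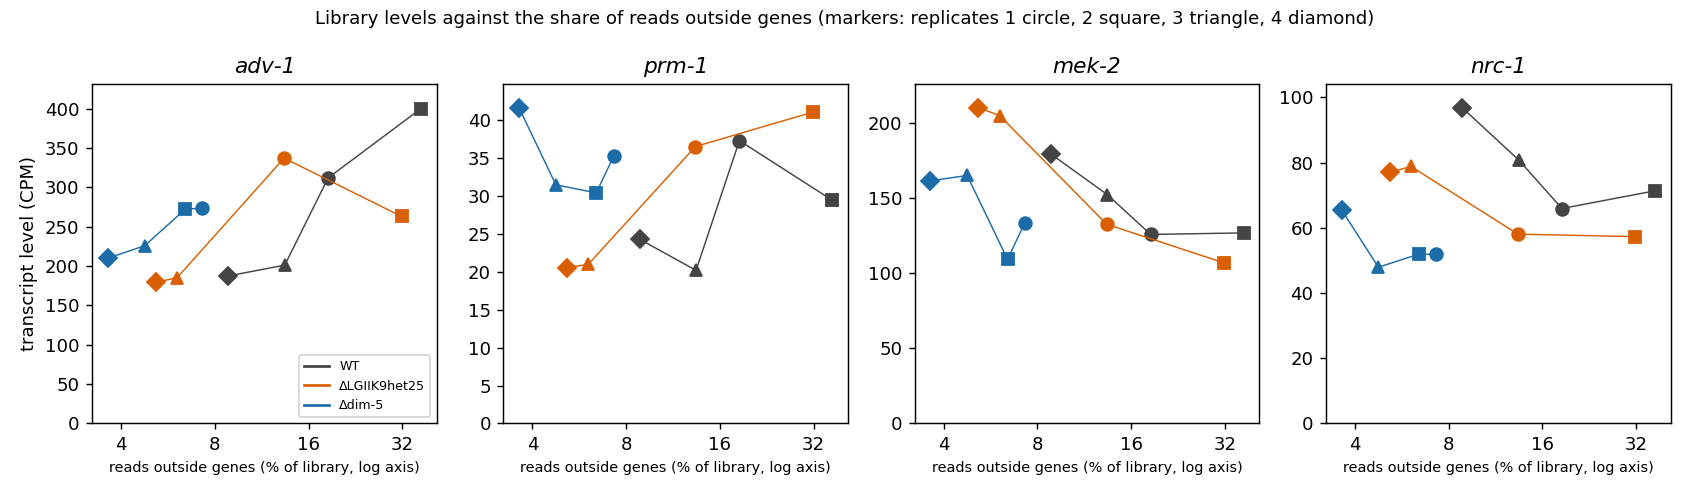
Level in CPM, on a linear axis from 0, of adv-1, mek-2, nrc-1 and prm-1 in each library against the percentage of its reads outside genes, on a log axis. Each point is a library, coloured by strain, and lines join the libraries of a strain. Levels of adv-1 are higher and those of mek-2 lower in the libraries with the larger shares of every strain. In each strain these libraries are replicates 1 and 2.

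The 10 genes did not vary as a single block within strains. Over the 45 pairs of genes, the correlation of deviations from strain means across 12 libraries had a median of 0.28 and ran from -0.80 for nrc-1 with adv-1 to 0.78 for nrc-1 with mek-2, and 29 of the 45 were positive. The kinase genes nrc-1 and mek-2 thus rose and fell together from library to library, opposite to adv-1. The correlation of mek-2 was -0.78 with adv-1 and -0.69 with prm-1, whereas adv-1 and prm-1 had a correlation of 0.67. The transcription factor genes pp-1 and adv-1 had a correlation of 0.59, so and ham-5 of 0.63, and ham-5 and ham-2 of 0.67. These values describe 12 libraries in which all 10 genes were read from the same RNA, at depths that differed between libraries, and no test was made of them. Deviations of nrc-1, mek-2, adv-1 and prm-1 also went with the share of reads outside genes, as given above. The part of that share in the correlations between these genes was not tested.

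**Figure D4:**
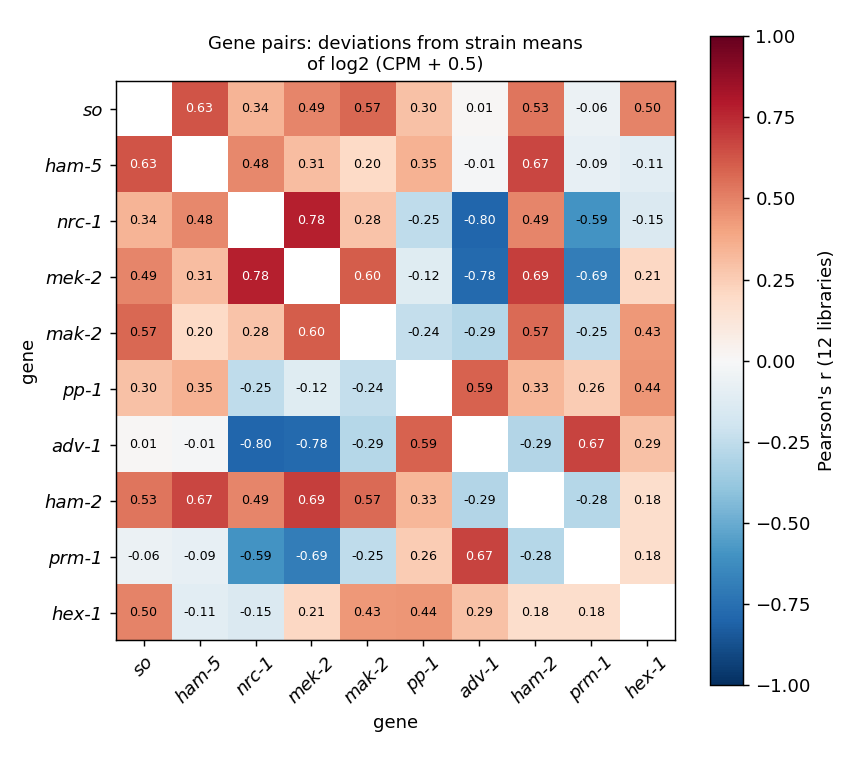
Pearson correlation across 12 libraries between each pair of the 10 genes, computed on the deviations of log2 CPM from the strain means. Colour gives r from -1 to 1, with nrc-1 and mek-2 positive with each other and both negative with adv-1.

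For the 4 genes with the smallest adjusted p in any comparison, the genes with the most similar levels over the 12 libraries were looked up by the Pearson r of log2 CPM. The closest to so were NCU06934 (r = 0.94), NCU05807 (r = 0.90) and NCU10276 (r = 0.89), none of which carries a symbol of its own. NCU05807 had a WT mean of 51.3 ± 1.72 CPM, a ΔLGIIK9het25 mean of 75.4 ± 10.3 CPM and a Δdim-5 mean of 31.3 ± 6.70 CPM (SD, n = 4 each), the same order of strains as so. The closest to nrc-1 were NCU09794 (r = 0.89), the kinase gene stk-31 (NCU04747, r = 0.88) and NCU08706 (r = 0.86). The closest to ham-5 were gln-1 (NCU06724, r = 0.91), NCU03366 (r = 0.90) and NCU10258 (r = 0.89). For mak-2 they were nuo49 (NCU02534, r = 0.95) and nuo40 (NCU02373, r = 0.95), genes of the mitochondrial NADH dehydrogenase, and gh31-2 (NCU04203, r = 0.94). The gene nuo49 had a WT mean of 239.7 ± 17.0 CPM, a ΔLGIIK9het25 mean of 221 ± 20.5 CPM and a Δdim-5 mean of 168 ± 32.7 CPM (SD, n = 4 each), the order seen for mak-2. The 12 points share their libraries and strains, so these likenesses are descriptions. The genes were picked by r with differences between strains included, so a shared order of strains was largely given by the choice. On deviations from strain means, r was 0.57 for NCU05807 with so and 0.95 for nuo49 with mak-2.

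Other genes around the pathway were listed by role, and 28 of 45 had the listed name in the reference table as a symbol or synonym; all 28 were tested. They comprised 3 inputs of the MAK-2 cascade, 4 genes of the MAK-1 cell wall integrity cascade, 3 of STRIPAK, 10 other fusion genes, 5 of the osmotic (OS) cascade and 3 of the Woronin body or peroxisomal import. Between ΔLGIIK9het25 and WT, 0 of the 28 were called by edgeR, DESeq2 or limma-voom, and the median log2 fold change was -0.08. There 1 of the 28 had an unadjusted edgeR p under 0.05, beside 1339 of all 8496 genes. Between Δdim-5 and WT, 2 of the 28 were called, rac-1 lower and nox-1 higher, and the median was -0.09. Between Δdim-5 and ΔLGIIK9het25, os-2 alone was called, lower in Δdim-5, and the median was 0.03. These counts lie below the shares of all genes given above. The medians of the lists differed in sign. Among the 10 other fusion genes the median log2 fold change was 0.25 for Δdim-5 over WT, with 7 of 10 positive, and 0.28 for Δdim-5 over ΔLGIIK9het25, with 9 of 10 positive. The 3 inputs of MAK-2 had medians of -0.33 and -0.23, the 3 STRIPAK genes of -0.28 and -0.17, and the 5 genes of the OS cascade of -0.26 and -0.19 in the same comparisons.

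RAC-1, a small GTPase of polar growth, is listed among the inputs. Its gene stood at 305, 277, 297 and 337 CPM in WT (304 ± 25.1, SD, n = 4) and at 234, 182, 225 and 209 CPM in Δdim-5 (213 ± 22.6, SD, n = 4), with ΔLGIIK9het25 between them (271 ± 20.9, SD, n = 4). The WT and Δdim-5 libraries did not overlap, and the log2 fold change of Δdim-5 over WT was -0.52 (SE 0.13, edgeR adjusted p = 0.0145). The call held in all 21 alternatives, with adjusted p from 0.000361 to 0.0478.

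The NADPH oxidase gene nox-1 went the other way. It stood at 50.8, 52.1, 50.5 and 72.1 CPM in WT (56.4 ± 10.5, SD, n = 4) and at 85.2, 85.5, 74.5 and 93.5 CPM in Δdim-5 (84.7 ± 7.80, SD, n = 4), with 66.9 ± 12.2 CPM in ΔLGIIK9het25 (SD, n = 4). All Δdim-5 libraries were above all WT libraries, and the log2 fold change was 0.59 (SE 0.17, edgeR adjusted p = 0.0276). The call held in 15 of 21 alternatives. With the share of reads outside genes added to the fit the log2 fold change was 0.38 (edgeR adjusted p = 0.165). In edgeR without WT replicate 1, 2 or 3 the adjusted p was 0.072, 0.0686 or 0.0758, and without Δdim-5 replicate 2 or 4 it was 0.0534 or 0.0706. The gene nor-1, for the regulatory subunit of NADPH oxidases, had a mean of 244 ± 43.1 CPM in WT, against 355 ± 30.1 CPM in Δdim-5 (SD, n = 4 each), with no overlap, a log2 fold change of 0.54 and an edgeR adjusted p of 0.0643. It was called in DESeq2 (adjusted p = 0.0358), with a mean of at least 5 CPM (edgeR adjusted p = 0.047) and without ΔLGIIK9het25 replicate 2 (edgeR adjusted p = 0.0257). The fusion gene ham-6 had the largest fitted change of the 28, a log2 fold change of 0.88 (SE 0.30, edgeR adjusted p = 0.0617). It stood at 129.9, 74.5, 40.8 and 64.5 CPM in WT (77.4 ± 37.7, SD, n = 4) and at 162, 147, 135 and 128 CPM in Δdim-5 (143 ± 15.2, SD, n = 4), with 91.4 ± 28.9 CPM in ΔLGIIK9het25 (SD, n = 4). The highest WT library overlapped the Δdim-5 range. Alternatives that called ham-6 included DESeq2 (adjusted p = 0.0292), limma-voom (adjusted p = 0.0358) and the fit without WT replicate 1 (edgeR adjusted p = 0.00661).

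OS-2 is the Hog1-type kinase of the osmotic cascade, another mitogen-activated protein kinase pathway of the fungus. Its gene stood at 289.6, 433, 291 and 288 CPM in ΔLGIIK9het25 (325 ± 71.7, SD, n = 4) and at 226, 183, 209 and 222 CPM in Δdim-5 (209.97 ± 19.6, SD, n = 4), with WT at 251 ± 34.3 CPM (SD, n = 4). The level of ΔLGIIK9het25 replicate 2 was well above those of the other libraries, but even without it the ranges of the 2 mutants did not overlap. The log2 fold change of Δdim-5 over ΔLGIIK9het25 was -0.63 (SE 0.17, edgeR adjusted p = 0.0201), and it was called in 20 of 21 alternatives, the exception being the fit with a term for the share of reads outside genes (edgeR adjusted p = 0.0578), in which rac-1 was called instead.

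**Figure D5:**
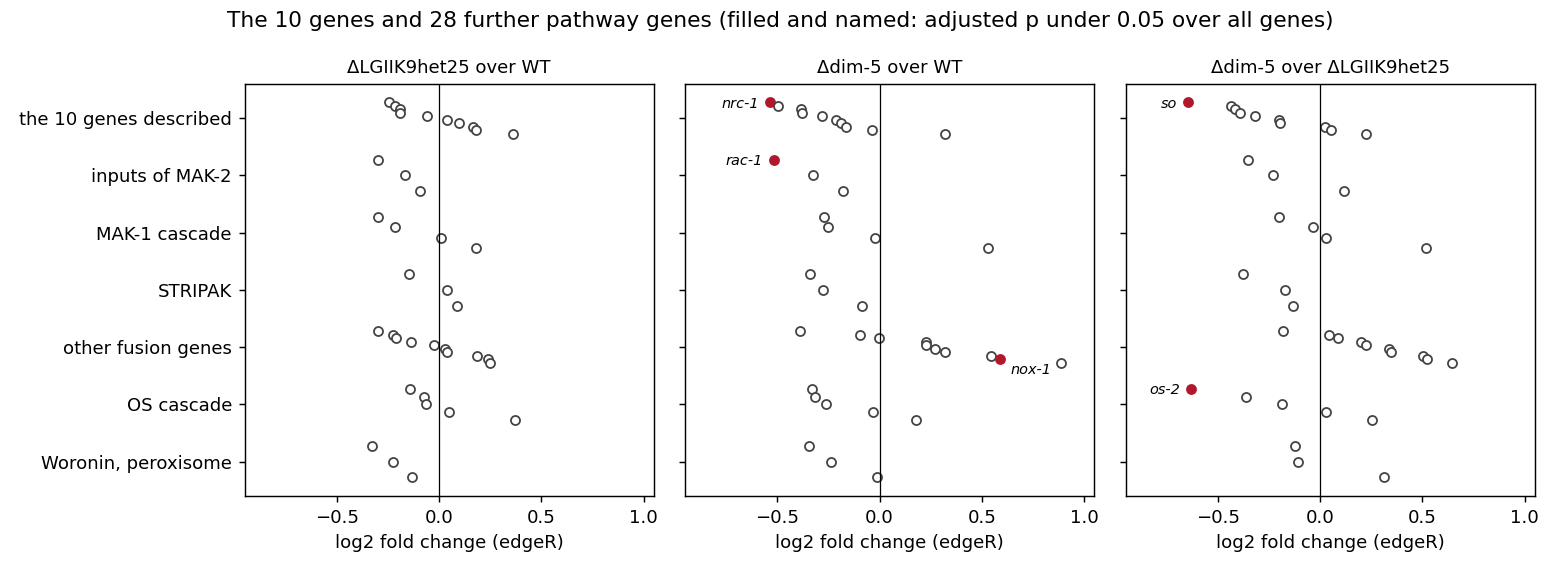
Log2 fold changes from edgeR of the 10 genes and of the 28 listed pathway genes, by role, in the 3 comparisons. Each point is a gene, and filled, named points have an adjusted p under 0.05. Most points lie within 0.5 of 0, and the named ones are nrc-1, rac-1 and nox-1 in Δdim-5 over WT and so and os-2 in Δdim-5 over ΔLGIIK9het25.

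The MAK-2 cascade also serves the response to mating pheromone. Of the 7 listed genes of mating and sexual development, the pheromone receptor gene pre-1 and the pheromone precursor gene mfa-1 rose in ΔLGIIK9het25 relative to WT (log2 fold changes 1.76 and 2.41, edgeR adjusted p = 0.00104 and 0.00295). Both were lower in Δdim-5 than in ΔLGIIK9het25 (log2 fold changes -1.28 and -2.68, edgeR adjusted p = 0.00195 and 0.000393). No other gene of the 7 was called in any comparison. Of all genes, 4.32% were called between ΔLGIIK9het25 and WT and 16.7% between Δdim-5 and ΔLGIIK9het25. In Δdim-5 over WT, pre-1 and mfa-1 were not called (log2 fold changes 0.47 and -0.27, edgeR adjusted p = 0.2 and 0.679). Both had their highest mean in ΔLGIIK9het25, 11.6 CPM for pre-1 and 23.9 CPM for mfa-1. So did fmf-1, pre-2, ccg-4 and poi-2, which were not called, whereas sub-1 had its highest mean in WT. The share of all genes with their highest mean in ΔLGIIK9het25 was not counted. The mating type of the Δdim-5 strain is not resolved by its label, and its part in these values was not tested.

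The genes next to the 10 in the reference order gave 20 neighbours, of which 19 were tested. Annotated spans overlapped for mek-2 with NCU04613, mak-2 with NCU02394, ham-2 with NCU03728 and hex-1 with NCU16405. Counting ignored strand, so reads in such overlaps cannot be assigned with certainty and the values of these 4 genes are to that extent uncertain. Of the 19, 1 was called in each comparison, which is near or below the shares of all genes given above, and these calls fell on 2 genes. NCU06183, next to nrc-1, had a WT mean of 40.0 ± 4.43 CPM, a ΔLGIIK9het25 mean of 41.5 ± 9.34 CPM and a Δdim-5 mean of 22.1 ± 6.72 CPM (SD, n = 4 each). It was lower in Δdim-5 than in WT (log2 fold change -0.86, edgeR adjusted p = 0.0223) and than in ΔLGIIK9het25 (log2 fold change -0.91, edgeR adjusted p = 0.0165). The neighbour of nrc-1 on the other side, NCU06181, was not called in Δdim-5 over WT (log2 fold change -0.25, edgeR adjusted p = 0.504). NCU09338, next to prm-1, had 0 reads over the 4 WT libraries and 50 over the 4 ΔLGIIK9het25 libraries, and was at least 13.1-fold higher in the latter when WT is set to a floor of 3 reads over the strain (edgeR adjusted p = 0.0433). The gene prm-1 itself was not called in that comparison. Over the 4 Δdim-5 libraries NCU09338 had 19 reads. It was called neither in Δdim-5 over WT (edgeR adjusted p = 0.0834) nor in Δdim-5 over ΔLGIIK9het25 (edgeR adjusted p = 0.23).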

How the data were processed

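Per the labels, polyadenylated RNA of 12 libraries was sequenced as single reads of 118 nt after a directional library kit, and each library came with a table of raw counts, reads per gene, as the authors deposited it. The submitters' processing notes name HISAT2, HTSeq and DESeq2, and the names of the deposited files state that counting ignored strand. Which versions, build and annotation were used is not given in the sources used here. Reads of overlapping or antisense genes can therefore be credited to the wrong gene or dropped as ambiguous. The 5 closing entries that name no gene (reads outside genes, ambiguous, unaligned and the like) were left out of totals and tests; reads outside genes were 3.62% to 36.8% of a library's entries. Groups and replicate numbers came from the sample titles.

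Levels are CPM on TMM-scaled totals. Genes were kept by filterByExpr, and 1 fit of all 12 libraries with a mean per strain and 9 residual degrees of freedom was made in R 4.3.3 with edgeR 4.0.16 (quasi-likelihood F-test, two-sided, Benjamini-Hochberg adjustment over 8496 genes, call at 0.05). Standard errors are the size of the log2 fold change over the root of F, and intervals are 95%. Alternatives used RLE size factors, library totals alone, DESeq2 1.42.0, limma-voom 3.58.1, no filter, a mean of at least 5 CPM, the compared strains alone, a replicate block, a term for the share of reads outside genes, and each library left out. Correlations use log2(CPM + 0.5). The fitting script was tested on simulated data.

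The 10 genes, the pathway and marker lists and the tests were chosen with earlier results of these data known. Genes named are the 10, list genes that were called, the 3 genes most alike to each of the 4 of the 10 with the smallest adjusted p, neighbours that were called, and dim-5. The genes nor-1, ham-6, NCU06181, pre-1, pre-2, mfa-1, fmf-1, sub-1, poi-2, eas and ccg-4 were named after their values were seen. RefSeq's table of genes (assembly NC12) held 9729 of the 9730 identifiers and served for symbols and neighbours only. No pair of libraries of a strain was alike within sampling noise.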

Additional observations from a re-analysis of the deposited data

Results flagged for a closer look

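On the log2 scale, a single value stood apart from the other libraries of its strain. The level of pp-1 in Δdim-5 replicate 1 was 195 CPM, while the other 3 Δdim-5 libraries lay between 231 and 239 CPM. The gap to the nearest of them, divided by the whole range, was 0.831, just above Dixon's 95% critical value for 4 values. Of 30 groups (10 genes in 3 strains) 1 was above this value, and chance puts about 1 in 20 groups there.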

How the results depend on the processing

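Log2 fold changes of the 10 genes, rac-1, nox-1, os-2, nor-1 and ham-6 in the 3 comparisons were recomputed under 21 alternatives. Of these 945 values, 885 kept their direction and their side of the threshold, 17 lost a call, 18 gained one, and 25 changed sign, of which none was a call. Calls between ΔLGIIK9het25 and WT were 0 of the 10 genes and 0 of the 28 listed genes under all alternatives. The share of all genes called there ran from 2.47% to 7.27%. Between Δdim-5 and WT, 1 of the 10 genes was called in the fit reported; 2 were called with library totals alone and in DESeq2, 0 with a mean of at least 5 CPM and when the fit held no other strain, and 0 to 1 with a library left out. Of the listed genes 2 were called in that comparison, against 4 in DESeq2, 3 in limma-voom (ham-6 added), with the mean of at least 5 CPM (nor-1 added) and with the replicate block (ham-6 added), 1 with a term for the share of reads outside genes, and 1 to 3 with a library left out. Between Δdim-5 and ΔLGIIK9het25, 1 of the 10 genes was called, against 3 with library totals alone and in DESeq2, 2 in limma-voom, and 1 to 2 with a library left out; 1 listed gene, os-2, was called, against 2 with library totals alone and in DESeq2, and rac-1 took its place with the share term. The share of all genes called moved as well, and is given above for DESeq2, limma-voom and library totals alone. Between Δdim-5 and WT it was 16.3% with the mean of at least 5 CPM and 14% when the fit held no other strain. It was 17.7% with the replicate block, 14% with the term for reads outside genes, and 12.4% to 17.5% with a library left out. Between Δdim-5 and ΔLGIIK9het25 it was 15.9% with that term and 11.1% to 16.9% with a library left out. The cause of these differences was not tested.

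With that term, the sign changed for mek-2 (-0.015), adv-1 (0.020) and nor-1 (-0.035) in ΔLGIIK9het25 over WT and for adv-1 (0.31) in Δdim-5 over WT. With library totals alone it changed for pp-1 (-0.027) and adv-1 (-0.067) in Δdim-5 over ΔLGIIK9het25. With a library left out, log2 fold changes of ΔLGIIK9het25 over WT ran from -0.40 to 0.046 for adv-1, -0.023 to 0.11 for ham-2, -0.10 to 0.27 for prm-1, -0.30 to 0.10 for hex-1 and -0.075 to 0.19 for nor-1. Those of Δdim-5 over WT ran from -0.11 to 0.077 for mek-2 and -0.31 to 0.071 for adv-1, and those of Δdim-5 over ΔLGIIK9het25 from -0.011 to 0.13 for pp-1 and -0.11 to 0.23 for adv-1. Library totals alone also moved the split of calls over all genes, from 765 higher and 640 lower to 652 and 756 between Δdim-5 and WT, and from 750 and 673 to 586 and 788 between Δdim-5 and ΔLGIIK9het25.

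The replicate numbers of the titles were not taken to pair the libraries, since not every same-numbered pair had a correlation over 0.1. Same-numbered libraries had correlations of deviations from strain means of -0.20 to 0.52 between ΔLGIIK9het25 and WT, -0.04 to 0.05 between Δdim-5 and WT and 0.08 to 0.11 between Δdim-5 and ΔLGIIK9het25. With the replicate number as a block, 0, 1 and 1 of the 10 genes were called in these comparisons and 0, 3 and 1 of the 28. Of all genes, 4.37%, 17.7% and 17.3% were called with the block. The block changed no call of the 10 genes. Replicates 1 and 2 still shared the larger shares of reads outside genes in every strain, with the split of adv-1 and mek-2 described above, so the numbers are not free of shared structure.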
